A study of Mus musculus with 3 samples.

Results

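The vacuolar-type proton ATPase (V-ATPase) and the proteins of the lysosomal membrane were followed at the level of RNA through 40 listed genes of the 55536 genes in the deposited gene tables. The genes are a list of names, and no threshold on a measured value entered the rule: 17 for the V-ATPase and its accessory proteins, 4 for structural membrane glycoproteins, 11 for transporters and channels, 3 of the LAPTM family, and 5 for the Ragulator and Rag complexes. All 40 were found by symbol in the gene tables and in the kallisto-format transcript tables of each library. The cells were bone-marrow-derived macrophages of the inbred mouse strain C57BL/6J, and their polyadenylated RNA was sequenced. Every library carries the same treatment in its labels, lipid A at 100 ng/ml for 0 minutes, which makes these cells the starting point of a stimulation. The 3 libraries, replicates 1, 2 and 3, form 1 group with no second one to set against it, so levels and the spread between replicates are what the design can give. The labels record neither age nor sex of the animals. Biosamples differ between the libraries while the donor record is shared, and separate animals are not mentioned, so part of the spread between libraries, and of any p-value from it, may be technical.

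The lysosome is the acidic compartment in which macrophages break down what they engulf. Its acidity comes from the V-ATPase, a rotary pump whose cytosolic V1 sector splits ATP and turns a ring in the V0 membrane sector that carries protons across the membrane. Heavily glycosylated membrane proteins line the lumenal side, and transporters and channels let cholesterol, amino acids, sugars and ions out or in. The same membrane is where the Ragulator and the Rag GTPases recruit the growth kinase complex mTORC1. Many lysosomal genes carry E-boxes of the sequence CACGTG near their start, which transcription factors of the MiT/TFE family (Tfeb, Tfe3, Mitf and Tfec) are known to bind.

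The promoter windows of these genes were searched for that E-box, since it is the sequence feature for which lysosomal genes are best known. RefSeq promoter windows (250 bases before to 50 bases after the start, build GRCm38.p6, which is mm10) were in the reference table for 32 of the 40 genes. CACGTG, which reads the same on both strands, occurred in the windows of 11 of the 32 (34.4%), against 8.09% of the 27025 genes in that table. The longer TCACGTGA, which contains it, occurred in 6 of the 32 (18.8%), against 1.12% of genes. The complete CLEAR palindrome GTCACGTGAC, which contains both, occurred in 1 of the 32, Cln3, against 0.37% of genes. These are matches of letters, with no measurement of binding. The genes of the reference table were neither limited to those expressed here nor matched for base composition. The genes with CACGTG were Atp6v0b, Atp6v0d1, Atp6v0e, Atp6v1a, Lamp1, Mcoln1, Clcn7, Cln3, Lamtor1, Lamtor4 and Rragc. A gene with several windows was counted if any of them held the box. For Cln3 the window at chr7:126583187-126583486 held its boxes, and that at chr7:126585768-126586067 held 0. Atp6v0a2, Atp6v1b2, Atp6v1c1, Atp6v1g1, Atp6v1h, Npc1, Slc15a3 and Laptm4b had no entry in the table.

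The stretches that hold the boxes are shown for 6 genes on which later results turn, with E-boxes in capitals, 5′ to 3′ on the gene's strand, and each was cut so that no annotated exon is included. Lamp1 (chr8:13159055-13159160, plus strand) had 4 boxes within its last 61 bases before the start, more than any other of the 32 genes. Atp6v0b (chr4:117887334-117887410, minus strand) and Lamtor4 (chr5:138255317-138255428, plus strand) each had a pair. Atp6v1a (chr16:44139340-44139435, minus strand) had a single box 131 bases before the start. For Mcoln1 (chr8:3500403-3500456, plus strand) 1 of its 2 boxes lies in the stretch. For Clcn7 (chr17:25133331-25133390, plus strand) the stretch precedes the first of its annotated starts.
Lamp1: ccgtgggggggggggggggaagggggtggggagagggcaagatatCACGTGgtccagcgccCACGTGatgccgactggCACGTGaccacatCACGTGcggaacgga
Atp6v0b: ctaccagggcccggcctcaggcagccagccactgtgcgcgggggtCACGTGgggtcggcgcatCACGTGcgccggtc
Lamtor4: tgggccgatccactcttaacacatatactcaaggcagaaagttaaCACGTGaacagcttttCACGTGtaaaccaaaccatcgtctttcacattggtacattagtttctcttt
Atp6v1a: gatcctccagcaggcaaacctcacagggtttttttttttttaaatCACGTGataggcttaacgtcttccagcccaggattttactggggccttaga
Mcoln1: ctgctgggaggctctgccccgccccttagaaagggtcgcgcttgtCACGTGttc
Clcn7: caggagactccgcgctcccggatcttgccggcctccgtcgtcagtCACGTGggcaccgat

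**Figure D1:**
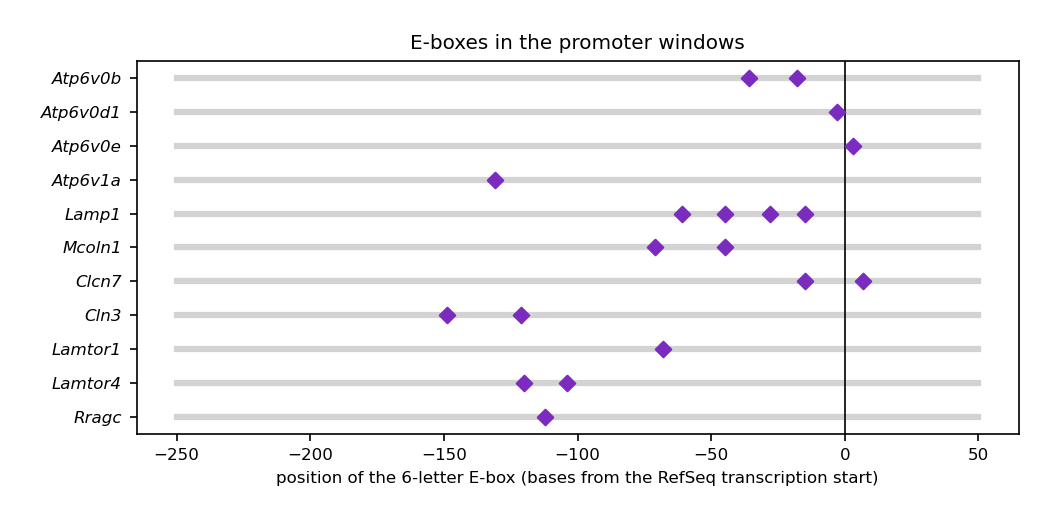
Positions of CACGTG in the RefSeq promoter windows of the 11 genes that hold it, in bases from the transcription start; each diamond is the first base of a box and each grey bar is the window of 250 bases before to 50 bases after the start. Lamp1 has 4 boxes, at 61, 45, 28 and 15 bases before the start.

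Replicates 1, 2 and 3 were sequenced to 27946070, 29779410 and 53447437 expected counts, so that a gene with no count could still be present at up to 3 counts, which is 0.107, 0.101 and 0.0561 CPM (counts scaled to equal library totals). The 9 macrophage markers examined summed to 23383, 38807 and 20523 TPM (transcript abundance per length, scaled to the same sum in each library). Lyz2 alone was at 15616.5, 29522.9 and 11086.2 TPM. Replicates 1, 2 and 3 were highest for 1, 6 and 2 of the 9 in TPM, and lowest for 4, 1 and 4. Among all genes tested later 39.3%, 40.4% and 20.3% were highest there, and 27.0%, 23.4% and 49.5% lowest. Each of the 9 was in every library at 1 TPM or more. Of 10 neutrophil markers 4 were, and their summed level was 172, 36.3 and 338 TPM, with Ly6g listed at 0. Of 8 osteoclast markers 4 were, summing to 34.0, 43.8 and 42.9 TPM, with Calcr listed at 0. Of 8 B and T cell markers only Cd79b was, and the list summed to 2.19, 2.48 and 3.82 TPM. Replicate 3 stood apart in the transcripts that reads were assigned to: 4.98% of genes with at least 2 annotated transcripts had a main transcript share over 30 percentage points away from both other libraries, against 0.297% in replicate 1 and 0.276% in replicate 2. The part of other cells in the values that follow was not tested, and in bulk RNA fewer cells of a type and less RNA per cell cannot be told apart.

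Nearly all of these genes were active before stimulation. Of the 40, 39 reached 1 TPM in every library, where 19.0% of all genes did. The exception was Atp6v0e2, an isoform of the small e subunit, at 0.07, 0.17 and 0.03 TPM. The median of the 40 mean levels was 206.2 TPM, and the medians of the single libraries were 175.4, 187 and 154. Mean levels ran from 0.09 TPM for Atp6v0e2 to 2519 TPM for Lamp1. Lamp1, Atp6v0c, Laptm5 and Cd63 led, at ranks 42, 57, 75 and 95 of all genes by mean TPM. Thus a proton-ring subunit, a LAPTM protein and a pair of membrane glycoproteins stood above the rest of the list, as the plot of levels by library shows.

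**Figure D2:**
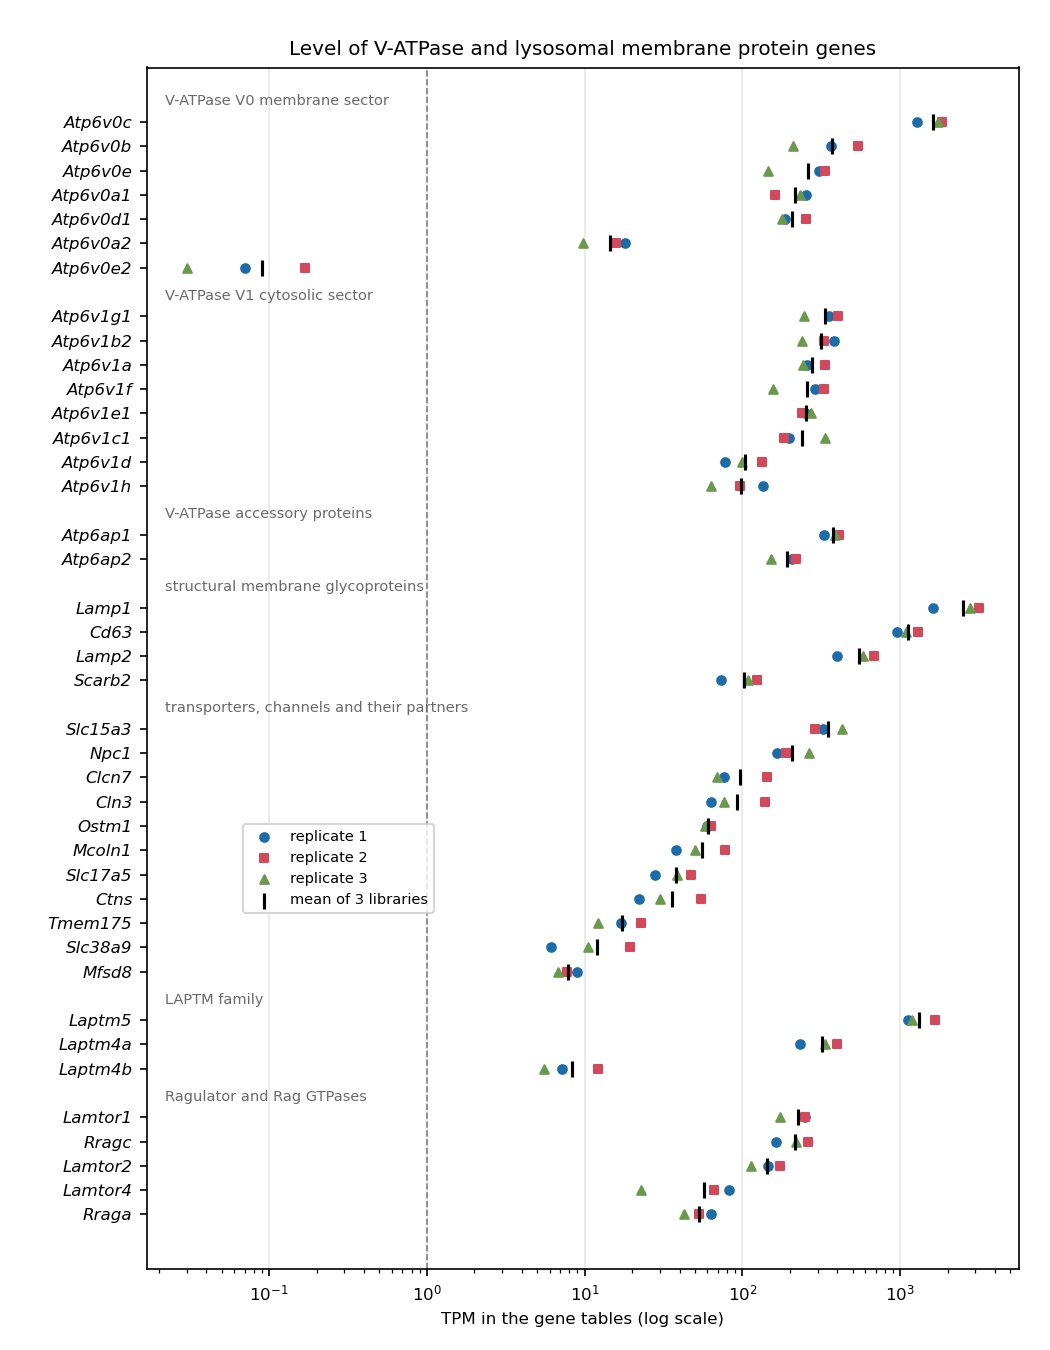
TPM of the 40 genes in each of the 3 libraries (log scale), grouped by role and ordered by mean, with black ticks for the mean of 3 libraries and a dashed line at 1 TPM. Lamp1, Atp6v0c, Laptm5 and Cd63 lie near or above 1000 TPM in each library, and Atp6v0e2 is the single gene below the dashed line.

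The V0 sector was led by its proteolipid ring. Atp6v0c (chr17:24163866-24169702, minus strand, mm10), which encodes the c subunit present in several copies per ring, was at 1274, 1842 and 1731 TPM, a mean of 1616 ± 301 (SD, n = 3). The processed pseudogene Atp6v0c-ps2, a close copy, was at 22.1, 31.9 and 1.44 TPM, and the split of reads between them is uncertain. Atp6v0b, the other ring subunit, was at 364, 537 and 211 TPM (371 ± 164), lowest in replicate 3. Atp6v0e, a small ring-associated subunit, was also lowest there, at 305, 336 and 145 TPM.

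Atp6v0d1, which couples the ring to the central stalk, was at 185, 254 and 179.6 TPM. Atp6v0a1, a form of the large a subunit that carries the path for protons, was at 254, 161 and 230.5 TPM, and here replicate 2 was the lowest. Atp6v0a2, another a isoform, was far less abundant, at 18.1, 15.9 and 9.71 TPM. The 6 V0 genes that could be tested differed between their highest and lowest library by a median of 1.63-fold in CPM scaled by TMM (a scaling that equalises the bulk of genes between libraries), close to the 1.66-fold of all 11886 tested genes.

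The 8 genes of the V1 sector lay within a narrow band of mean levels, from 98.8 to 335 TPM. Atp6v1a, the catalytic A subunit that splits ATP, was at 259, 332 and 243 TPM. Atp6v1b2, the B subunit that alternates with it, was at 379, 329.7 and 241 TPM, above A in replicate 1 and nearly equal to it in the others. Of the central rotor, Atp6v1f (F subunit) was at 289.6, 330.3 and 156 TPM, and Atp6v1d (D subunit) at 77.7, 133 and 100.2 TPM.

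Among the peripheral stalk and regulatory subunits, Atp6v1e1 (E) was the steadiest in the gene tables, at 251, 239.5 and 271.5 TPM (254 ± 16.2). The kallisto-format tables gave it 178, 170 and 255 TPM. In the deposited RSEM-format tables its coding transcript Atp6v1e1-201 was at 250, 236 and 208 TPM. Atp6v1e1-202, annotated as a retained intron, was at 0.3, 0 and 61.1 TPM there. Atp6v1g1 (G), the stalk partner of E, was at 354, 404 and 247 TPM. Atp6v1c1 (C), which holds the sectors together, was at 197.5, 185 and 334 TPM, high in replicate 3 alone. Atp6v1h (H), which blocks ATP splitting in the detached sector, was at 136, 97.0 and 63.2 TPM. D and H were thus the least abundant V1 genes, each near 100 TPM on average.

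Both accessory proteins were well represented. Atp6ap1 (Ac45), which takes part in assembly and sorting of the pump, was at 331, 409 and 387 TPM. Atp6ap2, also known as the prorenin receptor, was at 207, 219 and 153 TPM. It had the lowest ratio of highest to lowest library of all the tested genes on the list, 1.13-fold in TMM-scaled CPM. Each of the 8 assembly and regulatory factors examined beside them reached 1 TPM in all libraries, and their median level was 26.2 TPM. Rnasek was the highest of these, at 439, 482.5 and 362 TPM, followed by Ccdc115 at 54.4, 39.9 and 60.0 TPM and the endoplasmic reticulum factor Vma21 at 44.7, 28.9 and 40.5 TPM. Dmxl2, a subunit of the RAVE-like complex that helps reassemble the pump, was the lowest, at 8.99, 15.8 and 9.90 TPM.

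Several subunits are encoded by alternative genes, and 5 of the 8 outside the list were listed at 0. Atp6v0a4, Atp6v1b1, Atp6v1c2, Atp6v1e2 and Atp6v1g3, forms known from kidney, epididymis or testis, had no value above 0 in the gene table of any library. The kallisto-format tables listed Atp6v1c2 at 0.0598, 0.0752 and 0.0650 TPM and Atp6v1g3 at 0.0562, 0 and 0.0690 TPM, and the others at 0. Atp6v1b2 and Atp6v1e1 therefore made up 100.0% of the summed TPM of their subunit in both kinds of table. Atp6v1g2, a form known from neurons, was at 3.94, 5.89 and 8.63 TPM, a mean of 1.97% of the G subunit's TPM beside Atp6v1g1.

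The a and d subunits were the ones with more than 1 abundant gene. Tcirg1 (the a3 isoform, known for its role in osteoclasts) was at 274, 558 and 278 TPM. It made up 50.1%, 75.9% and 53.7% of the a subunit's TPM, a mean of 59.9% ± 14.0 (SD, n = 3), with Atp6v0a1 at 46.5%, 21.9% and 44.4% and Atp6v0a2 below 4% in each library. Replicate 2 thus differed from both other libraries, with Tcirg1 at its highest and Atp6v0a1 at its lowest.

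Atp6v0d2, the d isoform known from osteoclasts and macrophages, was at 161, 120.1 and 549 TPM. Its share of the d subunit's TPM was 46.4%, 32.1% and 75.4%, so Atp6v0d1 held the larger share in replicates 1 and 2 and Atp6v0d2 in replicate 3. In TMM-scaled CPM Atp6v0d2 differed 5.78-fold between libraries. Its unadjusted p in the edgeR test of spread was 0.0198, and it did not pass after Benjamini-Hochberg adjustment (0.97). Of the 8 osteoclast markers 5 were tested. The 3 others were below 1 TPM in every library. Dcstamp was at 0.34, 0.68 and 0.1 TPM, lowest in replicate 3. Ocstamp was at 0.08, 0 and 0 TPM, and Calcr was listed at 0. Without the filter on low counts 2, 1 and 4 of 7 markers were highest in replicates 1, 2 and 3. Of all genes in that setting 34.0%, 31.9% and 34.1% were. In TMM-scaled CPM 4 of the 5 tested markers were highest in replicate 3, where 33.0% of all tested genes were. The transcription factor Nfatc1 was at 45.2, 71.3 and 74.5, and the integrin Itgb3 at 16.1, 20.5 and 46.7. The protease Ctsk was at 2.88, 3.17 and 3.56, and the protease Mmp9 at 1.11, 0.353 and 2.73. The acid phosphatase Acp5 was lowest in replicate 3, at 4.44, 4.29 and 4.01. All 4 tested neutrophil markers were also highest in replicate 3. In TPM Nfatc1 and Ctsk were highest in replicate 2, and Itgb3 and Mmp9 in replicate 3. The part of other cell types in the level of Atp6v0d2 was not tested.

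**Figure D3:**
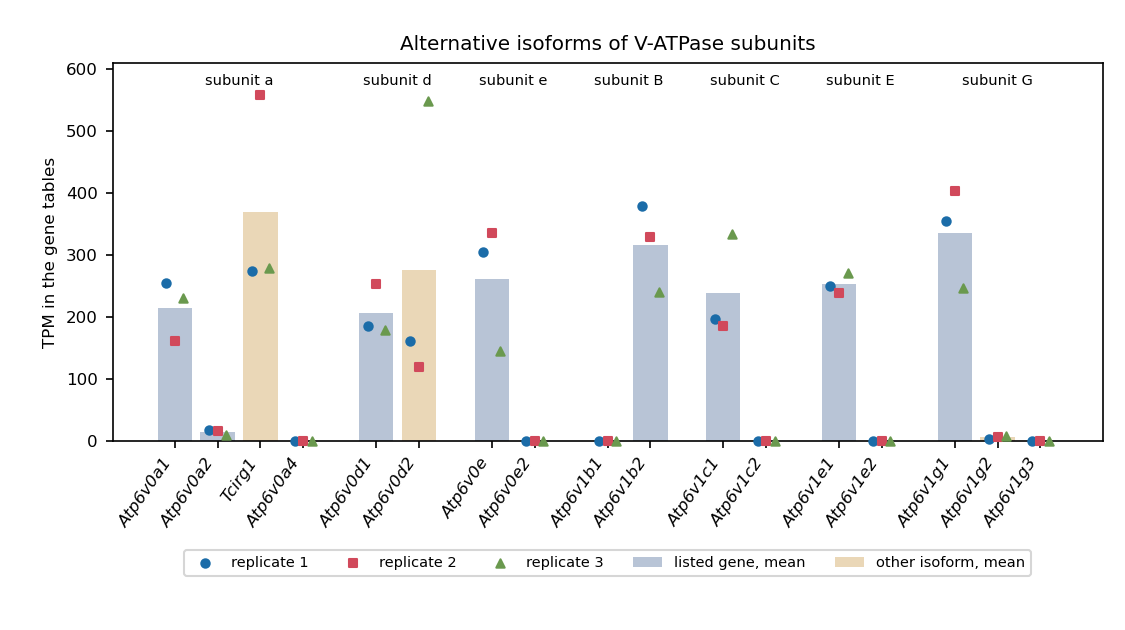
TPM of the alternative genes of 7 V-ATPase subunits; bars are means of 3 libraries, points are single libraries, blue bars mark listed genes and tan bars other isoforms. Subunits e, B, C, E and G rest almost wholly on a single gene, subunit a on Atp6v0a1 and Tcirg1, and subunit d on Atp6v0d1 and Atp6v0d2, the latter at 549 TPM in replicate 3.

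The structural glycoproteins were the most abundant group, with a median of 835 TPM. Lamp1 (chr8:13159161-13175338, plus strand), the main glycoprotein of the lysosomal lining, was at 1613, 3160 and 2784 TPM, a mean of 2519 ± 807 (SD, n = 3). Lamp2, its close relative, was at 396, 684 and 579 TPM. Cd63, a tetraspanin, was at 957, 1301 and 1092 TPM, and its pseudogene copy Cd63-ps at 15.2, 20.0 and 4.99 TPM.

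Scarb2 (LIMP-2), which carries glucocerebrosidase to the lysosome, was the lowest of this group, at 72.9, 125 and 109 TPM. All 4 were lowest in replicate 1, both in TPM and in TMM-scaled CPM, where 27.0% and 34.5% of all tested genes were. Which library was highest depended on the scale: replicate 3 for all 4 in TMM-scaled CPM, and replicate 2 for all 4 in TPM. In TMM-scaled CPM their median log2 ratio of replicate 1 to the other libraries (geometric mean) was -0.75, where that of all tested genes was 0.00. None was called more variable than genes of like abundance, but neither was any of the 11886 tested genes. The smallest unadjusted p of the 4 in edgeR's test was 0.389.

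Lamp2 is made in 3 coding forms that share all but their last exon, and that exon encodes the membrane span and the short tail that sorts the protein. In the deposited RSEM-format tables Lamp2-201 took 50.7%, 61.5% and 64.2% of the gene's TPM, and Lamp2-202 took 48.8%, 38.0% and 35.4%. Lamp2-203 stayed under 1%, at 0.316%, 0.388% and 0.216%. The kallisto-format tables gave 53.9%, 63.9% and 63.4% for Lamp2-201 and 45.6%, 35.5% and 36.2% for Lamp2-202. By their last coding sequence, these are the forms known as LAMP-2A, LAMP-2B and LAMP-2C in that order. LAMP-2A, the form known for chaperone-mediated autophagy, was thus the larger fraction in every library of both tables, by a small margin in replicate 1.

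The last 90 coding bases, stop codon included, are shown for the 3 forms because they are what separates them, with the last 18 in capitals. They lie in separate copies of exon 9 on the minus strand of chromosome X, at chrX:38405432-38405521, chrX:38421712-38421801 and chrX:38402139-38402228 (mm10).
Lamp2-201: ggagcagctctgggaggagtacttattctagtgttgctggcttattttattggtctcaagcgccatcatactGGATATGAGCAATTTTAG
Lamp2-202: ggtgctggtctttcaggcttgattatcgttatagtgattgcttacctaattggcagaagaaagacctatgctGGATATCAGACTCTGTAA
Lamp2-203: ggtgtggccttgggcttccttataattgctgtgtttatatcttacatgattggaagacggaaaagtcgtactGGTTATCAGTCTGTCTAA
Position by position, Lamp2-201 and Lamp2-202 had 48 of the 90 bases in common, Lamp2-201 and Lamp2-203 had 47, and Lamp2-202 and Lamp2-203 had 53. Reads over these ends can therefore be told apart, unlike reads over the shared exons.

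The 11 transporters, channels and partners spanned a wide range, with a median of 55.3 TPM. Slc15a3, a carrier of histidine and small peptides, was the highest at 325, 289 and 426 TPM. Npc1, which moves cholesterol out of the lysosome, followed at 165.5, 189 and 264 TPM. Its coding transcript Npc1-201 was at 105.8, 113.5 and 104.1 TPM in the RSEM-format tables. In the kallisto-format tables Npc1-201 was at 87.0, 91.8 and 122 TPM. Clcn7, the chloride-proton exchanger, came next at 76.5, 144 and 68.7 TPM. Ostm1, the partner that Clcn7 needs for stability, was at 59.8, 63.2 and 57.7 TPM and varied less between libraries, by 1.20-fold in TMM-scaled CPM against 1.78-fold for Clcn7. Mfsd8, the protein of a childhood neuronal ceroid lipofuscinosis, was the lowest at 8.96, 7.79 and 6.77 TPM.

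Cln3, the protein of juvenile Batten disease, was at 63.2, 139 and 76.8 TPM, highest in replicate 2. Ctns, the cystine exporter, was at 22.1, 54.8 and 29.9 TPM and Slc38a9, an arginine sensor that signals to mTORC1, at 6.16, 19.4 and 10.5 TPM. These 3 genes differed over 2-fold between libraries in TMM-scaled CPM, by 2.06, 2.43 and 2.49-fold, and each was highest in replicate 2. The others were Mcoln1, the calcium channel of the lysosome, at a mean of 55.3 ± 20.4 TPM, the sialic acid exporter Slc17a5 at 37.8 ± 9.56 TPM, and the potassium and proton channel Tmem175 at 17.4 ± 5.35 TPM (SD, n = 3). Mcoln1 was at 37.9, 77.7 and 50.1 TPM in the 3 libraries.

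Some of these genes overlap a neighbour on the opposite strand, and whether counting used strand is not given in the sources used here. Slc15a3 overlaps Tmem132a, at 96.5, 133 and 245 TPM, which like Slc15a3 was highest in replicate 3. Npc1 overlaps Rmc1, at 35.9, 26.4 and 55.4 TPM, and Cln3 overlaps Apobr, at 78.4, 43.6 and 133 TPM. Apobr was lowest in replicate 2, where Cln3 was highest.

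Of the LAPTM family, Laptm5, which is known from blood cells, was the most abundant at 1127, 1657 and 1191 TPM. Laptm4a was at 231, 399.6 and 335 TPM. Laptm4b, a close relative of Laptm4a, was far lower, at 7.23, 12.1 and 5.50 TPM. All 3 were highest in replicate 2 on the TPM scale. Laptm4a moved to replicate 3 on the TMM scale.

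Of the Ragulator, Lamtor1, the subunit that anchors the complex in the membrane, was at 250.4, 249.7 and 173.5 TPM. Lamtor2, a scaffold subunit, was at 145, 174 and 113 TPM. Lamtor4 (chr5:138255482-138259398, plus strand), another scaffold subunit, was at 82.7, 66.4 and 22.8 TPM. In TMM-scaled CPM it was at 33.1, 26.1 and 11.5, a 2.80-fold difference between libraries. Its level in replicate 3 was below both others on either scale, with an unadjusted p of 0.116 and an adjusted p of 0.97 in edgeR's test.

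The Rag GTPases work as pairs of a RagA or RagB with a RagC or RagD. Rragc was at 164, 261 and 219.8 TPM, and Rraga, the lowest of this group, at 63.4, 52.8 and 43.0 TPM. Of 10 further Ragulator, Rag and mTORC1 genes 9 reached 1 TPM in every library. Lamtor5 led at 153, 136 and 90.4 TPM, followed by Lamtor3 at 103, 131 and 114 TPM and the GTPase Rheb at 85.9, 51.8 and 40.5 TPM. Rragb was the lowest, at 0.72, 0.18 and 0.29 TPM, so the RagA form was the one represented in these cells.

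The transcription factors that bind the E-box were present at moderate levels. Tfe3 was at 78.7, 89.2 and 98.0 TPM, Tfec at 22.7, 46.0 and 29.1 TPM, Mitf at 25.8, 22.3 and 28.7 TPM, and Tfeb at 17.6, 35.1 and 11.4 TPM. Tfeb and Tfec were highest in replicate 2, and Tfe3 and Mitf in replicate 3. None of the 4 was called more variable than genes of like abundance, but neither was any of the 11886 tested genes.

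Of the 11 listed genes with a CACGTG in their promoter window, all of which were tested, 2, 8 and 1 were highest in replicates 1, 2 and 3 in TMM-scaled CPM. Of the 20 tested genes whose window lacked it, 1, 8 and 11 were. Among all tested genes 34.7%, 32.3% and 33.0% were. The median log2 ratio in replicate 3 was -0.18 with the box and 0.21 without, and in replicate 2 it was 0.40 and 0.26. In TPM the sets were alike, with 2, 9 and 0 of the 11 and 3, 16 and 1 of the 20 highest in replicates 1, 2 and 3. On log2 TPM 39.3%, 40.4% and 20.3% of all tested genes were. These counts are a description, since this split of the genes was made with earlier results known and the libraries are replicates of 1 condition. Atp6v0b, Atp6v0e and Lamtor4 hold the box, have transcripts under 1000 bases and had log2 ratios of -0.69, -0.78 and -1.32 in replicate 3. Atp6v1f and Lamtor2, also under 1000 bases, lack the box and had ratios of -0.62 and -0.12 there. The part of transcript length in these counts was not tested.

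Of 22 further lysosomal membrane genes, 20 reached 1 TPM in every library. Gpnmb, a glycoprotein of macrophages and pigment cells, was the highest at 8019, 9140 and 31374 TPM, followed by Cd68 (macrosialin) at 2937, 3004 and 5864 TPM and the metal transporter Slc11a1 at 293, 366 and 321 TPM. The mean transcript length given for Gpnmb was 3231, 3276 and 1603 bases, and in TMM-scaled CPM it was at 15254, 17412 and 33940, a difference of 2.22-fold. Gpnmb and Cd68 exceeded every listed gene in mean level. Lamp5, a relative of Lamp1 known from neurons and dendritic cells, was listed at 0 in all 3 libraries, and Lamp3, known from dendritic cells, at 0.02, 0.02 and 0 TPM. Of these 20 genes 14 were lowest in replicate 1 in TMM-scaled CPM and 11 in TPM, where 34.5% and 27.0% of all tested genes were.

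Variation between replicates was then compared with that of all genes. The edgeR test asks whether a gene varies more between libraries than genes of like abundance. It called 0 of 39 listed genes, and 0.0% of the 11886 genes tested. At an unadjusted p under 0.05 it found 0 of 39, where 4.59% of all genes passed. The smallest unadjusted p on the list was 0.0791, for Atp6v1d, with an adjusted p of 0.97. DESeq2 marked 0 of the 39 as dispersion outliers, and 9 of all genes.

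On TMM-scaled CPM 6 of 39 listed genes differed over 2-fold between their highest and lowest library, where 32.1% of all tested genes did. The 6 were Atp6v1d (3.14-fold), Lamtor4 (2.80), Slc38a9 (2.49), Ctns (2.43), Lamp1 (2.16) and Cln3 (2.06). Of the 25 at 100 TPM or more on average 2 did, where 37.5% of all genes at that level did. The count rested on the full set of libraries: 2 of 39 passed without replicate 1, 3 without replicate 2 and 2 without replicate 3, where 15.4%, 17.5% and 16.9% of all genes did. It was 11 on log2 TPM with a pseudocount of 1, where 32.3% of all genes passed.

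In TMM-scaled CPM the listed genes were most often lowest in replicate 1. Of 39 genes 21 were lowest in replicate 1, 6 in replicate 2 and 12 in replicate 3, where 34.5%, 32.9% and 32.7% of all tested genes were. The highest library was replicate 1 for 6, replicate 2 for 18 and replicate 3 for 15, where 34.7%, 32.3% and 33.0% of all genes were. The median log2 ratios were -0.29, 0.27 and 0.13 in replicates 1, 2 and 3, and 0.00 in each for all tested genes. On log2 TPM the order changed: 16, 4 and 19 genes were lowest in replicates 1, 2 and 3, where 27.0%, 23.4% and 49.5% of all genes were, and 8, 27 and 4 were highest, where 39.3%, 40.4% and 20.3% of all genes were. On that scale the median ratios were -0.17, 0.46 and -0.21, where those of all genes were 0.10, 0.12 and -0.23. Replicate 2 held the highest median ratio on both scales, while replicate 3 changed sign. Without replicate 1 the median ratio in replicate 3 was -0.13 in TMM-scaled CPM.

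The roles gave different values. In TMM-scaled CPM the V-ATPase genes had median ratios of -0.01, 0.10 and -0.04, and 5 of the 16 tested were lowest in replicate 1. Of the transporters 8 of 11 were lowest there and of the glycoproteins 4 of 4, with medians of -0.41 and -0.75. Among all tested genes 34.5% were lowest there. In TPM 3 of the 16 V-ATPase genes, 6 of the 11 transporters and all 4 glycoproteins were lowest in replicate 1, where 27.0% of all genes were. None of the 5 Ragulator and Rag genes was highest in replicate 3 on either scale, where 33.0% and 20.3% of all genes were. Differences between roles were not tested.

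**Figure D4:**
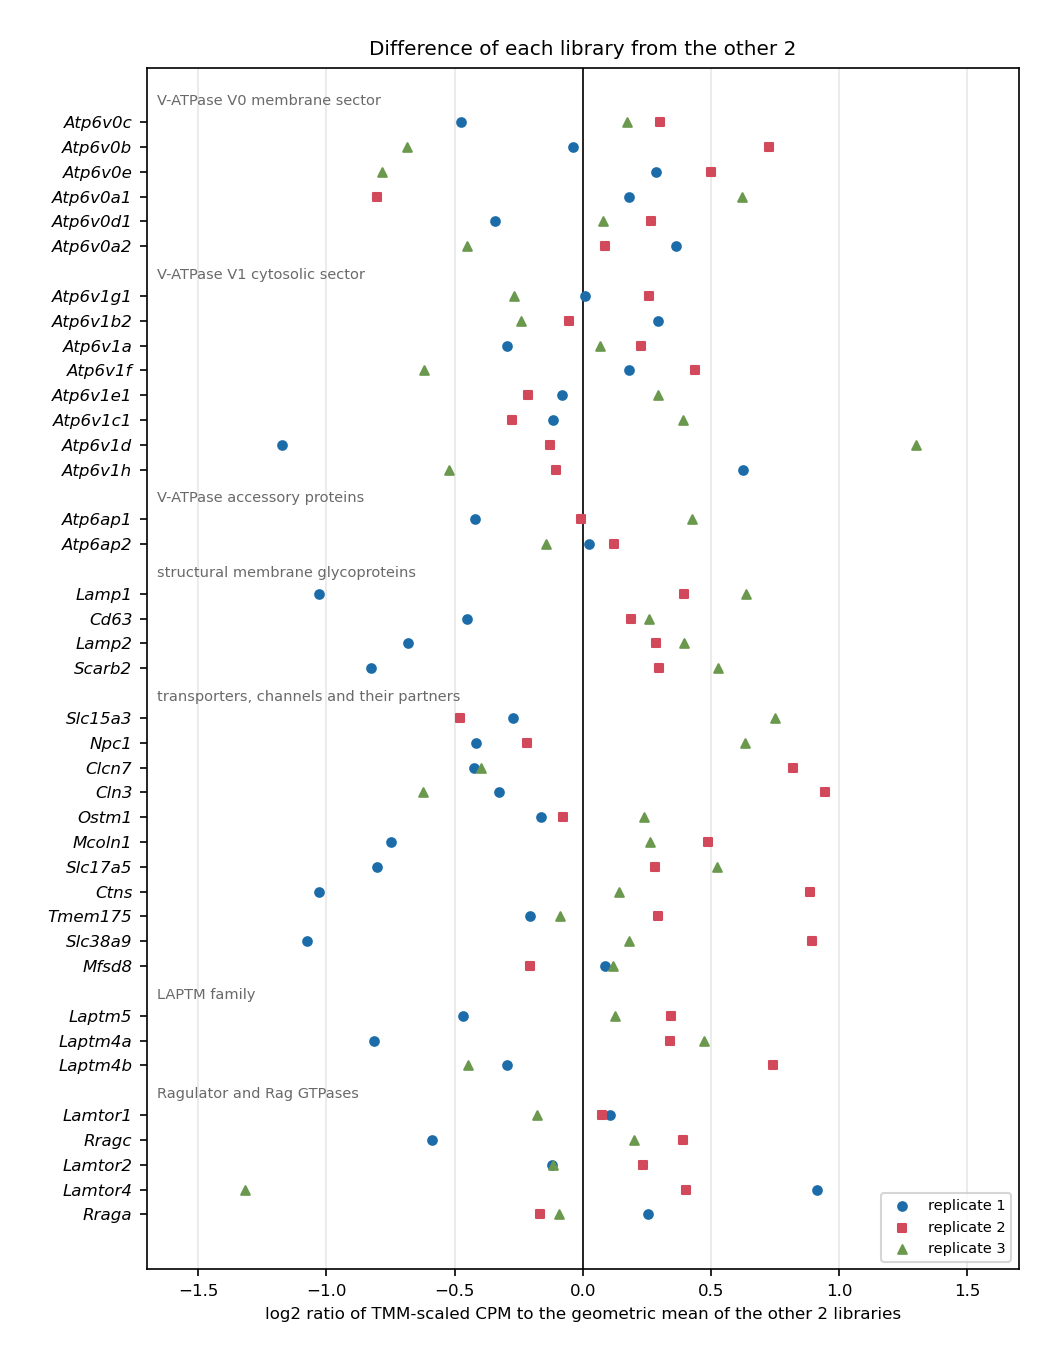
Log2 ratio of each library's TMM-scaled CPM to that of the other 2 (geometric mean), for the 39 tested genes grouped by role; 0 means no difference. Replicate 1 lies left of 0 for all 4 glycoproteins, and the points farthest from 0 in replicate 3 are Lamtor4 at -1.32 and Atp6v1d at 1.30.

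In replicate 3 the log2 ratio of a gene was weakly related to the length of its transcripts. The 5 listed genes under 1000 bases, Atp6v0b, Atp6v0e, Atp6v1f, Lamtor2 and Lamtor4, had log2 ratios of -0.69, -0.78, -0.62, -0.12 and -1.32 in replicate 3, and 4 of the 5 were lowest there. The 34 longer genes had a median of 0.18. Among all tested genes the 1108 short ones had a median of -0.30 in replicate 3 and the 10778 longer ones 0.02. Across the 39 genes, which share these libraries and are not independent, Spearman's rho of the ratio in replicate 3 with length was 0.386, and across all tested genes 0.134. In replicates 1 and 2 it was -0.281 and -0.179 across the 39 genes, and -0.087 and -0.061 across all tested genes. The lengths are means over the libraries, so they depend in part on the transcripts to which reads of replicate 3 were assigned. The part of length in the low values of Atp6v0b, Atp6v0e, Atp6v1f and Lamtor4 in replicate 3 was not tested.

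The deposited tables in RSEM and kallisto format give separate estimates from the same reads. Of the 39 genes 0 differed over 1.5-fold between them in mean TPM, where 5.2% of genes at 1 TPM or more in every library did. After division by the median ratio of all genes it was again 0, where 4.9% did. The median ratio of kallisto-format to RSEM-format TPM was 0.793 over the listed genes and 0.822 over all genes, and it differed between libraries. In replicates 1, 2 and 3 it was 0.727, 0.728 and 0.945 over the listed genes and 0.754, 0.76 and 0.96 over all genes, so the tables lay closest in replicate 3. Npc1 had the lowest ratio, 0.684, and Cln3 the highest, 1.14. Without replicate 3 the ratio of Npc1 was 0.604, past the 1.5-fold limit.

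Of 36 genes with 2 or more annotated transcripts, 34 had the same main transcript in both tables, where 89.5% of all such genes did. The exceptions were Tmem175 and Cln3. For Tmem175 the RSEM-format tables gave Tmem175-201 a mean share of 46.1% and the kallisto-format tables gave it 16.8%, with Tmem175-202 at 47.3%. Cln3 had 19 annotated transcripts, and its main one, Cln3-204, held 21.6% in the RSEM-format and 4.01% in the kallisto-format tables, where Cln3-203 led with 21.4%. Apart from these, the lowest main shares were those of Clcn7-201 (48.2%), Slc38a9-201 (49.2%), Npc1-201 (54.4%) and Lamp2-201. The second transcript of Npc1, Npc1-206, is annotated as a retained intron and held 34.2%, 38.4% and 60.0% in the RSEM-format and 9.21%, 18.0% and 40.4% in the kallisto-format tables. It was at 56.5, 72.8 and 158 TPM in the RSEM-format and 9.17, 20.7 and 84.4 TPM in the kallisto-format tables.

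In 3 of the 36 genes the share of the main transcript in replicate 3 lay over 30 percentage points from both other libraries, in both tables, where 4.98% of all such genes did. In replicates 1 and 2 it was 0 of 36, where 0.297% and 0.276% of all genes did. This measure was chosen after the shares were seen. The 3 genes encode V-ATPase subunits, as do 15 of the 36. With 3 genes, or 8.33% of the 36, nothing about the V-ATPase is read from the count.

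Atp6v0c-201 held 97.9%, 97.0% and 46.3% of the RSEM-format TPM of Atp6v0c, and Atp6v0c-202 held 1.04%, 1.30% and 53.5%. The kallisto-format shares of Atp6v0c-202 were 1.71%, 1.97% and 71.9%. The transcripts have the same coding exons. Atp6v0c-202 begins at another first exon, farther upstream, and ends nearer at the 3′ side, at chr17:24164153 in place of 24163866, which makes it 796 bases long in place of 1183. The stretch before that upstream start (chr17:24169703-24169802, minus strand) is shown because its transcript was the one that differed, and none of the 3 windows of this gene holds a CACGTG.
Atp6v0c upstream start: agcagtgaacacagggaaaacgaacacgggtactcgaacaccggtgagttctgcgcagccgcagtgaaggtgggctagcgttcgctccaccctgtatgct

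Atp6v1c1-201 held 98.2%, 95.9% and 55.2%, and the non-coding Atp6v1c1-206, with 390 bases in 3 exons, held 0.82%, 0.974% and 44.2%. The coding transcript itself was at 194, 177 and 184 TPM in the RSEM-format tables. In the kallisto-format tables it was at 138, 125 and 169 TPM, highest in replicate 3 as the gene was. The high level of Atp6v1c1 in replicate 3 thus lay mostly in Atp6v1c1-206. It was at 1.62, 1.80 and 148 TPM in the RSEM-format and 1.30, 3.45 and 126 TPM in the kallisto-format tables.

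Atp6v1d went the other way. Atp6v1d-201, the coding form, held 41.4%, 39.3% and 98.2%, and the retained-intron transcript Atp6v1d-202 held 58.2%, 57.5% and 0.958%. The coding form was at 32.2, 52.3 and 98.4 TPM. The mean transcript length that the gene tables give for Atp6v1d was 1973, 1907 and 3614 bases, so the gene's counts in replicate 3 were divided by a greater length. In TMM-scaled CPM it was at 85.2, 138 and 268, highest in replicate 3, while in TPM it was highest in replicate 2. Where a level rests on such a shift, the coding transcript and the gene as a whole can give separate answers. They did for Atp6v1d and, in the RSEM-format tables, for Atp6v1c1.

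Clcn7 showed a smaller shift in the shares assigned to its starts. Clcn7-201, from the first start, held 62.0%, 51.7% and 30.8%, and Clcn7-204, from a start farther downstream, held 34.7%, 39.3% and 56.6%. The kallisto-format tables gave Clcn7-204 32.2%, 37.4% and 54.8%. Apart from a few bases at the 3′ end, Clcn7-201 and Clcn7-204 differ only in their first exons. These have 224 and 142 bases, in transcripts of 4071 and 3983 bases. Few reads can therefore tell the transcripts apart, and a change in the use of starts was not tested. The window of the first start holds 2 CACGTG boxes and that of the second holds 0. The stretch before the second start (chr17:25136522-25136621, plus strand) can be set beside that of the first, shown earlier.
Clcn7 second start: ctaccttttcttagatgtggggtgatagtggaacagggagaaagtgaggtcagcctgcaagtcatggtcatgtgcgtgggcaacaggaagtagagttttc

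**Figure D5:**
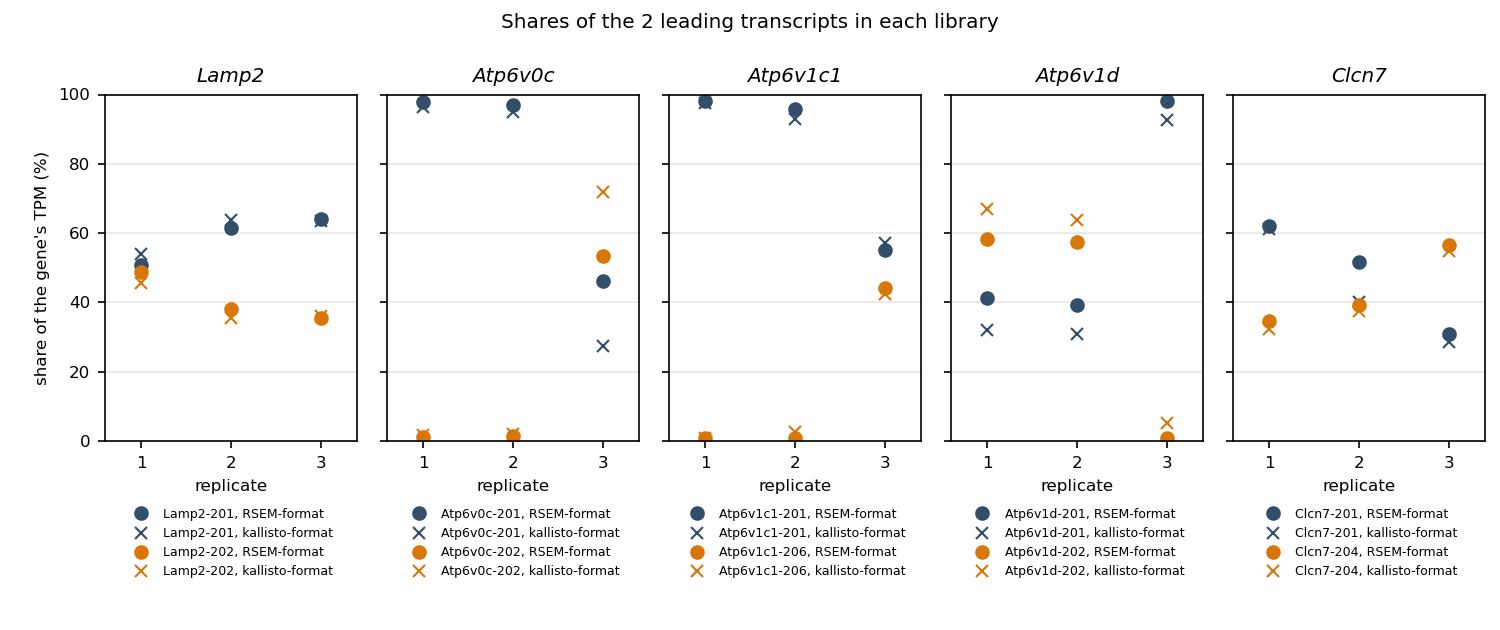
Share of the gene's TPM held by the 2 leading transcripts of Lamp2, Atp6v0c, Atp6v1c1, Atp6v1d and Clcn7 in each library; circles are RSEM-format and crosses kallisto-format tables. Lamp2 varies by less than 20 points, while Atp6v0c, Atp6v1c1 and Atp6v1d depart in replicate 3 from both other libraries.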

How the data were processed

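RNA from 3 macrophage libraries of 1 group was analysed from the deposited tables. The deposited file lists name the build mm10 and the annotation M21; the sources used here do not give the aligner, versions or use of strand. Per the file headers, the gene tables and 1 transcript table per library are in RSEM format, with expected counts, which are estimates that divide reads among transcripts. The kallisto-format tables, also deposited, hold estimated counts per transcript. Abundances in TPM were deposited by the authors and account for effective length. FPKM and the posterior mean counts were deposited too and served as alternatives. Each transcript's percent of its gene was deposited with the RSEM-format tables, and was recomputed here from TPM for both formats.

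The 40 genes, the lists beside them, the tests and the alternatives were chosen with earlier results of these data known. All 40 genes are named; values per library are given for every V-ATPase gene, for the 3 highest and the lowest of each other group of the 40 or list of related lysosomal genes, and for genes over 2-fold apart or on which a result turns. Lists of cell type markers are given by counts and sums. For transcripts, Lamp2, genes whose main transcript differs between tables and the 6 of lowest main share at 10 TPM or more are named. Transcripts of Atp6v0c, Atp6v1c1, Atp6v1d and Atp6v1e1 and the osteoclast markers were named after their values were seen. Entries outside M21, with 0.131%, 0.122% and 0.0843% of counts, were left out. Expected counts were rounded. With edgeR 4.0.16 (R 4.3.3) low genes were removed by filterByExpr, TMM gave factors of 1.03, 1.05 and 0.922, and glmQLFit was run with an intercept alone; an upper-tail F test set each quasi-dispersion against the prior, with Benjamini-Hochberg adjustment over 11886 genes at 0.05. Log2 ratios used a prior count of 0.5 CPM. DESeq2 1.42.0 was an alternative. The scripts were tested on simulated data. Limits from counts cover counting error only. No contrast was possible with 1 group. Promoter windows are from RefSeq (GRCm38.p6) and the Lamp2 sequences from GENCODE M21.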

Additional observations from a re-analysis of the deposited data

How the results depend on the processing

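The number of listed genes at 1 TPM or more was 39 under every table, scale and left-out library tried, and 35 stayed at 10 TPM or more. The count of genes called variable was 0 under every alternative. Without the filter on low counts edgeR called 146 of all genes, and without replicate 2 it called 7. The median level of the 40 genes, 206.2 TPM, was 154.6 in kallisto-format TPM, 239.3 in TPM rescaled without mitochondrial and ribosomal RNA, 141.4 in FPKM, and between 187.3 and 203.7 with a library left out. The number over 2-fold apart, 6, was 11 on log2 TPM and between 2 and 3 with a library left out. The number highest in replicate 3, 15, was 4 on log2 TPM and 7 on rescaled TPM, and between 16 and 25 with a library left out; those for replicates 1 and 2 were between 11 and 14 and between 23 and 28, where each gene has only 2 libraries to be highest in. The median log2 ratio in replicate 3, 0.13, was -0.215 on log2 TPM and -0.127 without replicate 1. The number over 1.5-fold apart between tables was 0, and 1 without replicate 3. With protein-coding transcripts only, 22 of 24 genes kept the same main transcript in both tables, since fewer genes have a choice. Depth limits Atp6v0e2, with 2, 5 and 2 counts. No paired analysis was possible because there was 1 group.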
